A study of Bos taurus with 12 samples.

Results

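The miR-200 family and miR-205 are miRNAs of epithelial cells, and their reads in plasma extracellular vesicles (EVs) of cattle are described here. The members were taken by name from the table of known miRNAs, as bta-miR-141, bta-miR-200a, bta-miR-200b, bta-miR-200c, bta-miR-429 and bta-miR-205, which is 6 of 783 miRNAs. All 6 had a read in at least 1 library, as had 336 of the 783. Small RNA libraries were made from blood plasma of 6 Charolais- and Limousin-cross heifers on Day 7 of 2 estrous cycles, the first without superstimulation (U) and the second with it (S). Superstimulation was a course of FSH injections with prostaglandin F2α followed by insemination, given after a synchronised cycle that all heifers had. The heifers had been chosen for a high (H) or low (L) number of corpora lutea after FSH, so the groups were UL, UH, SL and SH, with 3 libraries each. The U samples of each heifer preceded its S sample, and the S samples came from inseminated animals, so cycle order, insemination and FSH cannot be told apart.

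The miR-200 family represses the transcription factors ZEB1 and ZEB2 and thereby keeps cells epithelial. Its members come from a pair of primary transcripts, and miR-205, from a locus of its own, also represses ZEB1 and ZEB2 and is typical of skin, mammary and other stratified or glandular epithelia. In the mouse pituitary, miR-200b and miR-429 are needed for the release of luteinizing hormone that precedes ovulation. Plasma EVs carry RNA from many tissues, so a plasma level does not name a tissue of origin, and fewer vesicles from a tissue and less of a miRNA in each vesicle cannot be told apart.

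The mature sequences below are shown because the seed, the stretch that pairs with target mRNAs, splits the family into groups. They are as given in the table of miRNAs (DNA letters, 5′ to 3′), with the seed, bases 2 to 8, in capitals.
bta-miR-200c: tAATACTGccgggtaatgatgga
bta-miR-200b: tAATACTGcctggtaatgatg
bta-miR-429: tAATACTGtctggtaatgccgt
bta-miR-200a: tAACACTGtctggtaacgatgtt
bta-miR-141: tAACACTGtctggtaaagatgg
bta-miR-205: tCCTTCATtccaccggagtctg

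The seed AATACTG was carried by 3 of the 783 miRNAs, miR-200b, miR-200c and miR-429, and the seed AACACTG by 2, miR-141 and miR-200a. The seed of miR-205, CCTTCAT, was found in no other miRNA of the table. With positions counted from 1 at the 5′ end, and the base of the miRNA named first given first, miR-200c and miR-141 differed within the seed by T4C. Across the 21 positions compared, miR-200c and miR-200b differed by G11T alone, so within these positions a single base told them apart. At its 3′ end miR-200c runs on to 23 bases. miR-141 and miR-200a were the same over their first 16 bases and differed by A17C and G22T over 22 positions. The mature lengths were 21 to 23 bases, so read numbers of the members were compared without a correction for length. In the order of RefSeq genes on the bovine assembly ARS-UCD2.0, in which all 6 members were matched, MIR141 lay next to MIR200C with PTPN6 after them. MIR429, MIR200A and MIR200B lay side by side between TTLL10 and C16H1orf159, and MIR205 lay apart from both clusters, next to CAMK1G. The clusters thus each held a member of both seed groups.

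Reads assigned to known miRNAs numbered 21466 to 77433 per library, with a median of 41190. A normalized read is a read divided by the library's size after trimmed mean of M-values (TMM) scaling, and 3 reads, the upper limit that a count of 0 allows, were worth 1.82 to 6.08 normalized reads. The libraries with the fewest and the most reads, SH2 and SH3, belonged to the same group. Markers of other cells were present in all groups: the summed normalized reads of 3 erythroid miRNAs ranged from 991 to 8438, those of 4 leukocyte and platelet miRNAs from 1552 to 3461, those of 2 endothelial miRNAs from 1702 to 11988 and those of the liver miRNA miR-122 from 48.7 to 647. None of these 10 miRNAs was called in a comparison, where 2.64% to 5.47% of all miRNAs tested were called. The library UL1 stood apart by muscle miRNAs, with 1246 reads of miR-1 against 30 to 77 in the other libraries. SH3 stood apart by the erythroid miR-486, with 13808 reads against 794 to 3608 in the other libraries. The erythroid sum of 8438 normalized reads was that of SH3, and in UL, UH and SL the sum was at most 2782.

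miR-205 made up most of the signal of these miRNAs. It had 363 reads in total against 116 for the whole miR-200 family, or 3.13 reads per family read, and it was the only member detected in 12 of 12 libraries. By mean normalized reads it ranked 70 of the 336 detected miRNAs, with a mean of 29.7 ± 16.2 (SD, n = 12). The miR-200 family members ranked 135 (miR-200c), 153 (miR-200a), 175 (miR-200b), 209 (miR-141) and 276 (miR-429). Together the 6 members made up 0.0897% of all reads of known miRNAs.

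**Figure D1:**
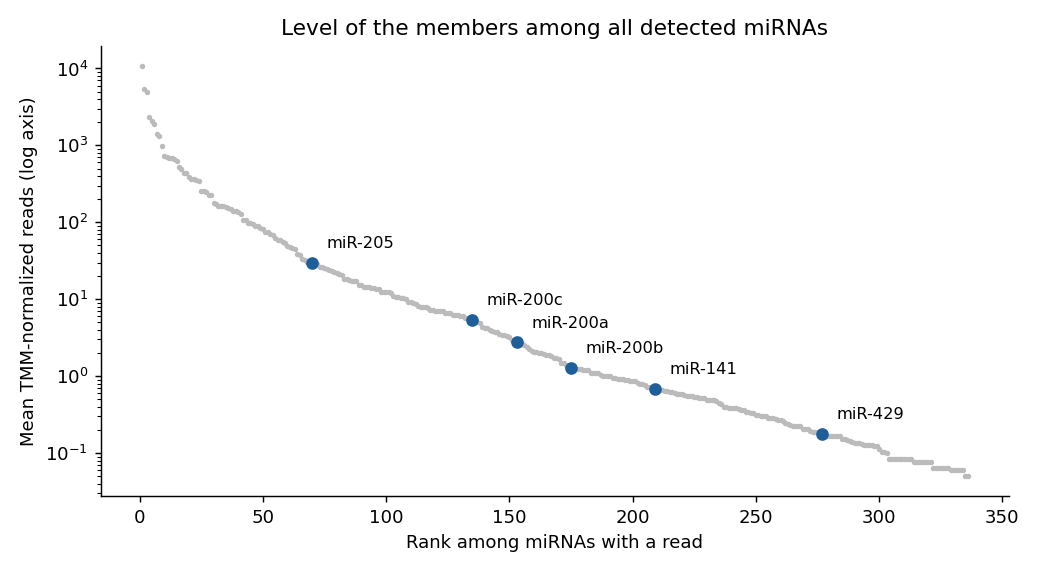
Mean TMM-normalized reads over the 12 libraries (log axis) against rank for the 336 miRNAs with a read, each a grey point, with the 6 members in blue. miR-205 at rank 70 stands above the 5 miR-200 family members, which lie between ranks 135 and 276.

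The order of levels was clear only at its top. Reads of miR-205 exceeded those of miR-200c in 12 of 12 libraries, and those of the summed family in 11, the exception being UH1 with 7 reads of miR-205 and 8 of the family. Reads of miR-200c exceeded those of miR-200a in 9 libraries and were fewer in 3. miR-200a exceeded miR-200b in 8, equalled it in 1 and was below it in 3, while miR-200b and miR-141 were equal in 5, and miR-141 and miR-429 in 9. Below miR-205, neighbours in this order were therefore not separated by the libraries. Of the 60 values of family members by library, 31 were 0, 13 were 1 to 3 reads and 16 were above 3 reads.

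For miR-205, the UL libraries held 28, 68 and 61 reads, or 26.0, 62.0 and 60.8 normalized reads. The UH libraries held 7, 32 and 43 reads, or 10.4, 23.0 and 32.6 normalized reads. Heifers L2 and L3 lay above all UH libraries, but L1 fell below H3, so the groups overlapped. In the superstimulated cycle the SL libraries held 16, 35 and 16 reads, or 19.8, 34.8 and 25.0 normalized reads. The SH libraries held 20, 9 and 28 reads, or 27.1, 18.2 and 17.0 normalized reads. These groups overlapped as well, with SH1 above SL1 and SL3. Mean normalized reads were 49.6 ± 20.4 for UL against 22.0 ± 11.2 for UH, and 26.5 ± 7.61 for SL against 20.8 ± 5.50 for SH (SD, n = 3 each).

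**Figure D2:**
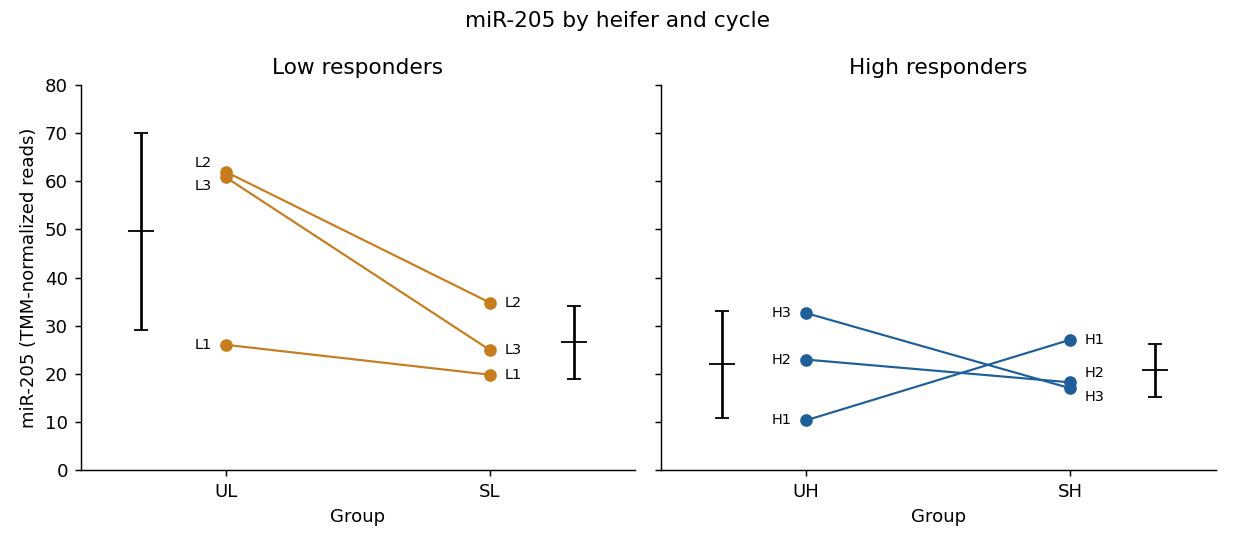
TMM-normalized reads of miR-205 in each heifer (point, labelled by heifer) in the unstimulated and the superstimulated cycle, joined by a line, for low (left) and high responders (right). Black bars give the group mean ± SD (n = 3). L2 and L3 in the unstimulated cycle, at 62.0 and 60.8, are the highest libraries, and H1 is the only heifer with more miR-205 in the superstimulated cycle.

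As a share of known miRNA reads, the lowest library was UH1 with 231 miR-205 reads per 1000000 (95% exact binomial interval 92.9 to 476) and the highest was UL3 with 1481 per 1000000 (1133 to 1901). These intervals cover counting error only, and they do not overlap. The 2 libraries were picked as the lowest and the highest of the 12, so this is no test of UH against UL. The reads of UH1 were the fewest miR-205 reads of any library, in the third smallest library of the 12. Over the 12 libraries the SD of log2 normalized reads of miR-205 was 0.71. Among 34 miRNAs with a mean level within 2-fold of miR-205, the median SD was 0.64, and 23 of them had a smaller SD, while the range over the 34 was 0.18 to 1.78.

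The comparison of UH vs. UL asks which miRNAs differ by later response before any FSH is given. miR-205 was called lower in UH, with a log2 fold change of -1.17 ± 0.48 (SE, 95% interval -2.18 to -0.17, unadjusted p = 0.0251 and adjusted p = 0.93 by limma with Benjamini-Hochberg adjustment, n = 3 per group). Calls took the cut-offs of the study's methods, a log2 change of 1 or more in either direction and p no higher than 0.05 before adjustment. It was the only one of the 5 members tested that was called. Among all 227 miRNAs tested, 6 were called (2.64%), of which 4 were lower in UH (1.76%), and none had an adjusted p below 0.05, the smallest being 0.322. At this number of tests the call of miR-205 does not hold after adjustment. By an exact two-sided permutation test on miR-205 alone, p was 0.2, where 3 against 3 libraries cannot go below 0.1. The libraries of UH and UL did not overlap for 17 of the 227 miRNAs (7.49%) and for 0 of the 5 members.

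The lower level of miR-205 in UH rested on a few libraries. Without UL2, UL3 or UH1 the log2 fold change was -0.97, -0.98 and -0.73 and miR-205 was not called in any of these fits, while without UL1, UH2 or UH3 it was -1.58, -1.27 and -1.52 and the call remained. UL1, the library with many muscle miRNA reads, had the lowest miR-205 of its group, so the difference was larger without it. On the deposited values, with no scaling beyond mapped reads, the difference was -1.004 (unadjusted p = 0.102 by limma).

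**Figure D3:**
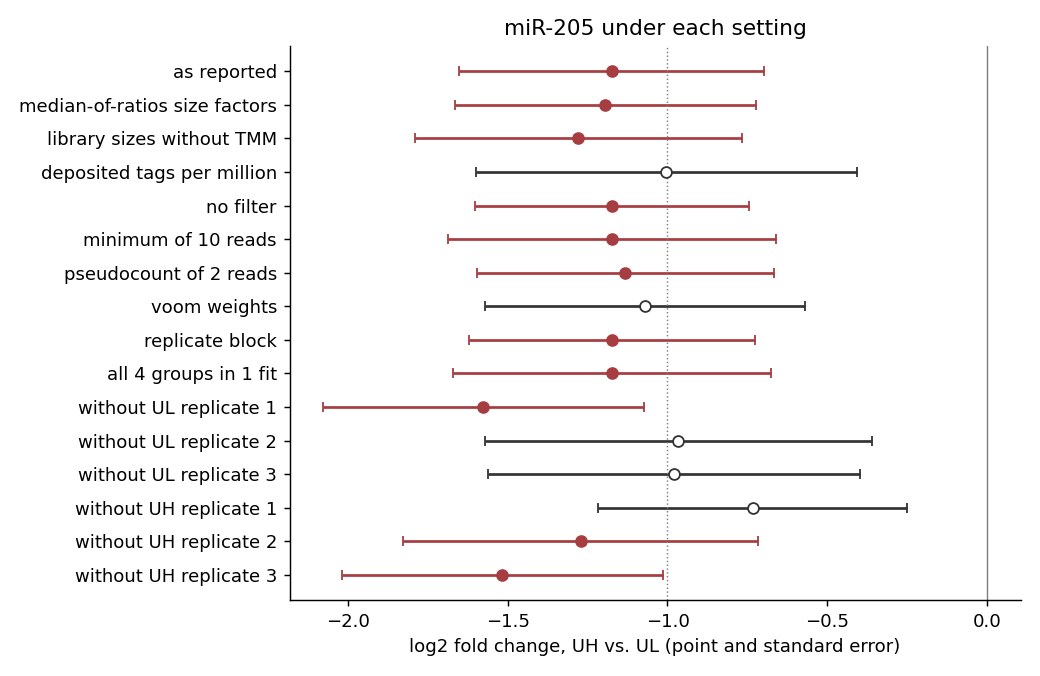
log2 fold change of miR-205 in UH vs. UL (point) with its standard error (bar) as reported and under 15 alternatives, with red points past the thresholds for a call and open points short of them. All points lie below 0, and 5 of the 15 alternatives fall short: the deposited values (tags per 1000000), voom weights, and the fits without UL replicate 2, UL replicate 3 or UH replicate 1.

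In the superstimulated cycle, the comparison SH vs. SL asks the same question after FSH, and no member was called. For miR-205 the log2 fold change was -0.33 ± 0.49 (SE, 95% interval -1.41 to 0.76, adjusted p = 0.815 by limma). The interval includes both no difference and the size seen in UH vs. UL. Among 201 miRNAs tested, 11 were called (5.47%), and 18 had groups that did not overlap (8.96%), none of them among the 4 members tested. The test of whether the difference by response changed between the cycles gave 0.84 ± 0.70 for miR-205 (SE, 95% interval -0.63 to 2.32, adjusted p = 0.847 by limma), so the 2 differences were not shown to differ. Leaving out H1 gave 0.21 and leaving out H3 gave 1.31. In that test 12 of 238 miRNAs were called (5.04%) and 0 of 5 members.

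Between the cycles, with U and S libraries matched to a heifer by their number, miR-205 was lower in S in 5 of 6 heifers. In the low responders it went from 26.0 to 19.8 in L1, from 62.0 to 34.8 in L2 and from 60.8 to 25.0 in L3. In the high responders it went from 10.4 to 27.1 in H1, from 23.0 to 18.2 in H2 and from 32.6 to 17.0 in H3. H1, the heifer with the lowest value in the unstimulated cycle, was the only one in which miR-205 was higher in S. Over all 12 libraries, with no term for heifer, S vs. U gave a log2 fold change of -0.39 ± 0.35 (SE, 95% interval -1.13 to 0.34, adjusted p = 0.721 by limma). The exact paired permutation test over the 6 heifers gave p = 0.375. In this comparison 11 of 238 miRNAs were called (4.62%), and 0 of the 5 members tested. Leaving out a heifer gave -0.71 without H1, -0.28 without L3 and -0.16 without H3, and the others lay between these.

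**Figure D4:**
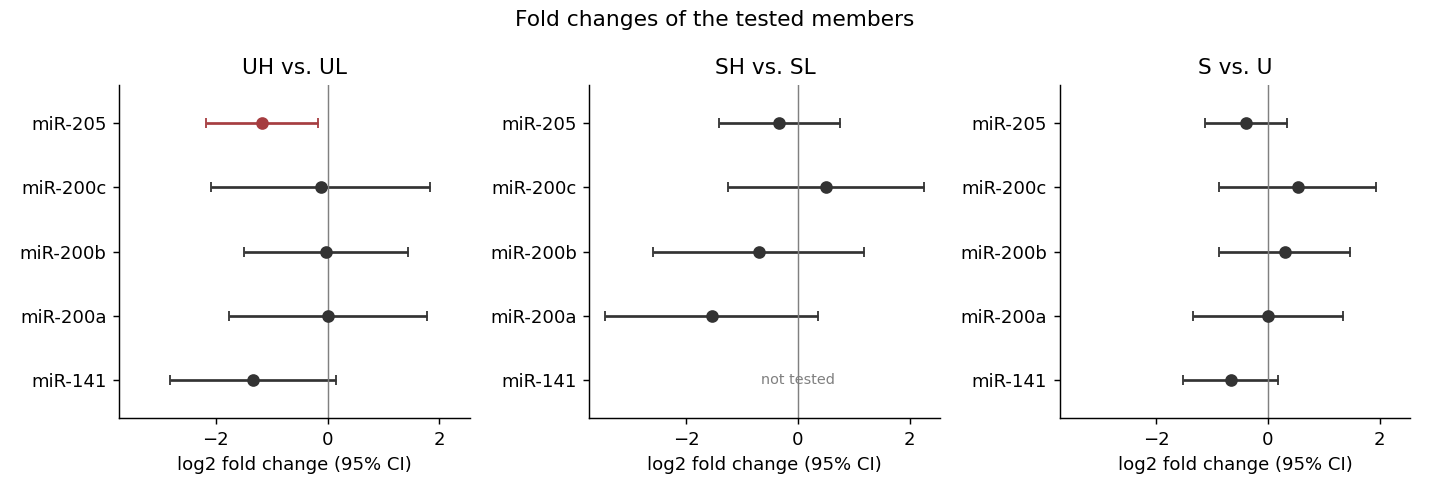
log2 fold change (point) with 95% confidence interval (bar) of the tested members by limma in UH vs. UL, SH vs. SL and S vs. U, with the called miR-205 in red. Apart from miR-205 in UH vs. UL, each interval includes 0, and miR-141 was not tested in SH vs. SL. The points for miR-141 depend on the added read, since it had 0 reads in 10 of 12 libraries. miR-200a and miR-200b passed the filter on low values in SH vs. SL through SL alone.

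The miR-200 family had 2, 33 and 6 reads in UL, 8, 12 and 3 in UH, 9, 14 and 6 in SL and 4, 8 and 11 in SH. The library UL2 alone held 33 of the 116 family reads, or 28.4%. In normalized reads the summed family averaged 12.6 ± 15.2 for UL, 7.58 ± 4.87 for UH, 11.5 ± 2.30 for SL and 9.44 ± 5.90 for SH (SD, 3 libraries each). The SD in UL exceeded its mean, and the groups overlapped in both cycles. By heifer, the sum went from 1.86 to 11.2 in L1, from 30.1 to 13.9 in L2, from 5.98 to 9.36 in L3, from 11.9 to 5.42 in H1, from 8.62 to 16.2 in H2 and from 2.28 to 6.69 in H3. The sum was thus higher in S in 4 heifers and lower in 2, with no common direction within a response group.

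**Figure D5:**
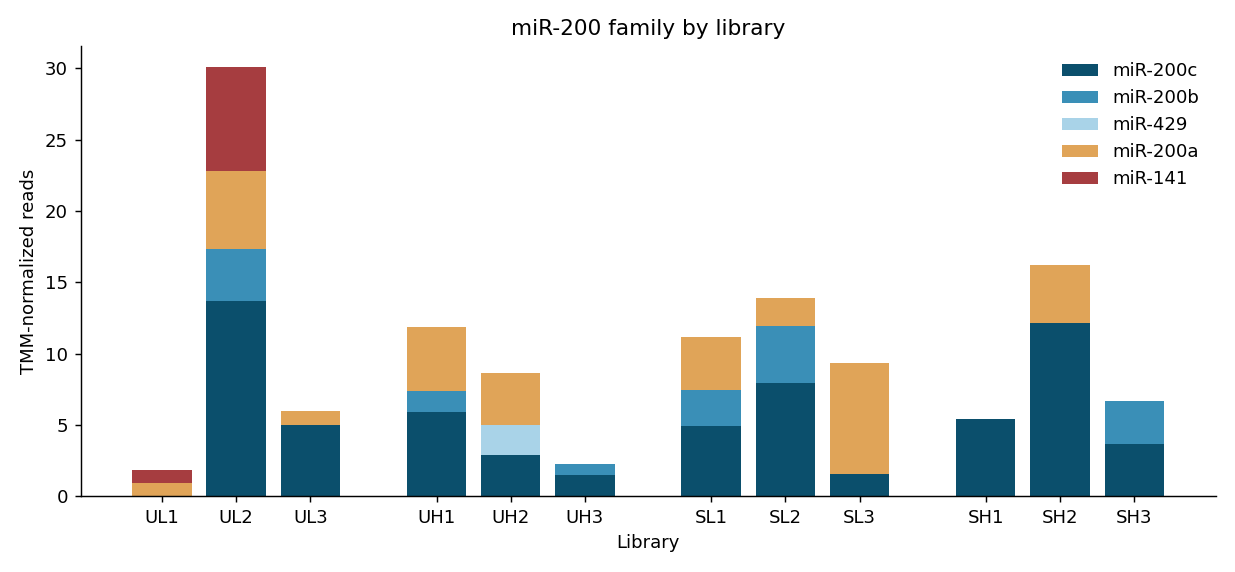
TMM-normalized reads of the 5 miR-200 family members in each of the 12 libraries, stacked, with the seed group of miR-200b, miR-200c and miR-429 in blue and that of miR-141 and miR-200a in warm colours. UL2 stands highest at 30.1, and miR-141 (red) is seen only in UL1 and UL2.

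miR-200c, the most abundant family member with 59 reads, was found in 11 of 12 libraries. It had 0, 15 and 5 reads in UL, 4, 4 and 2 in UH, 4, 8 and 1 in SL and 4, 6 and 6 in SH. The groups overlapped in both cycles. The log2 fold change was -0.13 ± 0.93 in UH vs. UL (95% interval -2.09 to 1.83), 0.51 ± 0.79 in SH vs. SL (-1.25 to 2.26) and 0.53 ± 0.67 in S vs. U (-0.87 to 1.93), each by limma with an adjusted p above 0.8. In the test by cycle it was 0.63 ± 1.33. No difference was detected, and the intervals leave room for changes in either direction.

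miR-200b, which differs from miR-200c by a single base over the 21 positions compared, had 17 reads in 6 libraries. They were 0, 4 and 0 in UL, 1, 0 and 1 in UH, 2, 4 and 0 in SL and 0, 0 and 5 in SH. In no group was it seen in every library. The log2 fold change was -0.03 ± 0.69 in UH vs. UL, -0.70 ± 0.85 in SH vs. SL and 0.30 ± 0.56 in S vs. U. It passed the filter on low values in SH vs. SL through SL alone, where its mean was higher, so no change is read from that value. The value there was -1.39 without SL3, -1.37 without SH3 and -0.36 without SH1 or SH2. miR-429, which shares the seed, had 3 reads in all, each of them in UH2. It passed the filter on low values in no comparison and was not tested.

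miR-200a, of the other seed group, had 28 reads in 9 libraries. It had 1, 6 and 1 reads in UL, 3, 5 and 0 in UH, 3, 2 and 5 in SL and 0, 2 and 0 in SH. In the unstimulated cycle both groups had 8 reads, and the log2 fold change was 0.00 ± 0.84 (95% interval -1.77 to 1.77). In the superstimulated cycle SL had a read in each library and SH in a single one, but the groups met at 2 reads, so they overlapped. The difference in SH vs. SL was -1.54 ± 0.86 (95% interval -3.44 to 0.36, adjusted p = 0.667 by limma), and the exact permutation p was 0.3. In this comparison miR-200a passed the filter on low values through SL alone, the group where it was higher. Its difference, with or without SH2, therefore cannot be weighed as a change. Without SH2, the shallowest library and the only SH library with a read, the fitted difference was -2.32 and miR-200a was called. That fit set SL against 0 reads in SH, so the value is no bound, and it called 34 of 196 miRNAs tested, against 11 of 201 with SH2. Counted over the group, the ratio of SH to SL was 0.171 with a 95% interval of 0.0182 to 0.801 for counting error alone, which leaves out the spread between heifers.

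miR-141, which shares the seed of miR-200a, had 9 reads, 1 in UL1 and 8 in UL2, and 0 in the other 10 libraries. UL3, UH, SL and SH were all at 0. Over the 3 UH libraries, 0 of 156650 reads allowed a level of up to 19.2 per 1000000, counted as 3 reads over the group, against 66.7 per 1000000 in UL (95% exact binomial interval 30.5 to 127). Both limits pool the heifers of a group and cover counting error alone, and 8 of the 9 reads in UL came from UL2. By the exact two-sided permutation test of UH vs. UL, p for miR-141 was 0.4. The mean of 2.74 normalized reads in UL was below the 2.96 that 3 reads per library were worth in UH, so no fold is given. The fitted log2 fold change of -1.33 ± 0.71 depended on the added read and is no bound (adjusted p = 0.93 by limma). In this comparison, in S vs. U and in the test by cycle, miR-141 passed the filter on low values through UL alone. In SH vs. SL miR-141 was not tested.

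By cluster, miR-200c and miR-141 had 29 reads in UL and 10 in UH, with 23 of the 29 in UL2. The cluster of miR-200b, miR-200a and miR-429 had 12 reads in UL and 13 in UH. In the superstimulated cycle the first cluster had 13 reads in SL and 16 in SH, and the second had 16 and 7. By seed, the group of miR-200b, miR-200c and miR-429 had 24, 15, 19 and 21 reads in UL, UH, SL and SH, and the pair miR-141 and miR-200a had 17, 8, 10 and 2. These sums are counts of few reads and were not tested.

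Other miRNAs that are abundant in epithelia were set beside the members, by a list of 15 of which 14 were in the table under the names used. Of these, 9 had a read, and miR-96, miR-34b, miR-449a, miR-449b and miR-449c, markers of sensory or multiciliated cells, had 0 in every library. Their summed normalized reads were 118 to 197 for UL and 120 to 179 for UH, and 78.0 to 194 for SL and 98.9 to 201 for SH, so the groups overlapped. None of the 7 tested in UH vs. UL was called, nor any of the 6 tested in SH vs. SL. Over all miRNAs tested the shares called were 2.64% and 5.47%. In S vs. U, 2 of 7 were called, both lower in S. Over all 238 miRNAs tested there, 11 were called (4.62%), 5 of them lower in S. In the test by cycle 0 of 7 were called, against 5.04% of all miRNAs tested. The median log2 fold change of the list was -0.47 in UH vs. UL, -0.23 in SH vs. SL and -0.42 in S vs. U, where the medians over all miRNAs tested were 0.04, -0.09 and -0.13. In UH vs. UL, miR-182 and miR-31 passed the filter on low values through UL alone, where they were higher. In SH vs. SL, miR-31 passed through SL alone. The remaining values in UH vs. UL were -0.83 for miR-184, -0.47 for miR-375, 0.27 for miR-192 and miR-215 and 0.44 for miR-194. These medians are therefore not weighed as a shift of the list. Beside the difference in miR-205 stood 4 muscle miRNAs, whose summed level was 74.7 to 1722 normalized reads in UL and 38.1 to 145 in UH. The upper value was UL1, which had the lowest miR-205 of UL at 26.0, and by this sum UL2 and UL3 lay within the range of UH. Of the 4, 1 was called lower in UH, against 4 of all 227 miRNAs tested (1.76%). The part of the muscle miRNAs in the result was not tested. In SH vs. SL 1 of 3 muscle miRNAs was called lower, again miR-206 (-1.80), against 7 of all 201 miRNAs tested. No muscle miRNA was called in S vs. U.

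miR-375, a miRNA of endocrine cells and glandular epithelium, was lower in S in 6 of 6 heifers. It went from 24.2 to 18.6 normalized reads in L1, from 38.3 to 24.9 in L2 and from 44.9 to 15.6 in L3. It went from 25.2 to 4.07 in H1, from 34.5 to 22.3 in H2 and from 17.5 to 10.3 in H3. Its log2 fold change in S vs. U was -1.02 ± 0.39 (adjusted p = 0.54 by limma). miR-182, a miRNA of sensory epithelia, was the other one called, with 11 reads in the 6 U libraries and 0 in the 6 S libraries, so its fitted value of -1.11 is no bound. It passed the filter on low values through UL alone, the group where it was highest, so its call cannot be weighed as a change. The other list members averaging 10 or more reads per library were miR-192 and miR-215 of the gut, liver and kidney, and miR-184 of the cornea and skin. miR-192 averaged 69.9 ± 31.5 normalized reads for UL against 83.1 ± 31.4 for UH, and 42.4 ± 17.6 for SL against 81.1 ± 51.4 for SH (SD, n = 3 each). miR-184 had 131 reads in SL2 against 1 to 23 in the other libraries, and SL2 also had the most miR-205 among the S libraries. miR-215 averaged 11.4 ± 5.19 for UL against 18.0 ± 13.9 for UH, and 10.3 ± 3.74 for SL against 15.4 ± 10.4 for SH.

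Likeness was looked for among the 106 other miRNAs averaging 10 or more reads per library. Those whose log2 normalized reads followed miR-205 most closely over the 12 libraries were miR-22-3p (Pearson r = 0.63), miR-23a (0.59), miR-320a (0.56), miR-2284x (0.53) and miR-423-5p (0.45). The median over the 106 was 0.07. Spearman's rho was lower for miR-320a, at 0.26, and r for miR-423-5p was 0.30 without UL2. For the summed miR-200 family the closest were miR-125a (0.63), let-7e (0.61), miR-10a (0.57), miR-181a (0.54) and miR-100 (0.53), with a median of -0.08. No miRNA was among the 5 closest to both. The correlations are a description over 12 libraries from 6 heifers that share depth and scaling.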

How the data were processed

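Total EV-RNA from plasma was made into libraries with unique molecular indices. Cutadapt was used by the authors to cut adapters and merge reads of the same index, and Bowtie2 (2.2.2) to map to the genome build UMD3.1, after which perfect matches were annotated from miRBase (release 21). The deposited values are a score, namely tags for every 1000000 reads mapped in the library, which the authors truncated to integers and did not scale by TMM. Each value was divided by the worth of a single read in its library (4.48 to 7.93) and rounded up to whole reads. Multiplied by that worth and truncated again, these reads gave back 100% of the deposited values exactly. The worth was searched for to reach this agreement, with the smallest value of a library taken as 1 read, so it is no independent check. The reads were not compared with the raw read counts that the study published. Reads from 12 libraries were scaled by TMM, and log2(normalized reads + 1) was fitted with limma 3.58.1 in R 4.3.3 (empirical Bayes with a mean trend), keeping a miRNA if 2 of the 3 libraries in either group had 1 read or more. P-values were adjusted over all miRNAs tested. The fits of S vs. U and of the test by cycle had no term for heifer, so their errors and p-values leave out the pairing. Because the values are a truncated normalized unit, a count model was not used.

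Groups and numbers came from the library names. U and S libraries of the same number were taken to come from the same heifer, since the study sampled the same heifers in both cycles. No label states this match. Deviations from group means correlated at -0.05 to 0.21 within a heifer so matched, over 238 miRNAs. H and L libraries share only a number, and for these the correlations were -0.03 to 0.19, so the values do not bear out the match. The 3 libraries of a group were from separate animals. The members, the lists and the rule for names (all 6 members, the 5 closest miRNAs, and list members with a mean of at least 10 reads or a call) were chosen with earlier results of these data known. Any other miRNA was named only where a result turned on it. Fits were tested on simulated data with a fixed spread and 40 miRNAs changed by a log2 fold of 2. In UH vs. UL 83.9% of the changed miRNAs averaging 10 reads or more were called, and 40.8% of those below. In the test by cycle these shares were 60% and 21.7%. A change as small as that fitted for miR-205 was not simulated. False calls averaged 11.4 in UH vs. UL, 10.9 in SH vs. SL, 7 in S vs. U and 12.3 in the test by cycle. In the same order, the data gave 6, 11, 11 and 12 calls in all. Coordinates were not used, since RefSeq's assembly is not the authors' build.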

Additional observations from a re-analysis of the deposited data

How the results depend on the processing

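The number of members called in UH vs. UL, 1 as reported, was 0 with the deposited values or voom weights, and 2 with no filter or with all 4 groups in a single fit. The member added there was miR-141, seen in UL1 and UL2 only. Fits that left out a single library gave 0 to 1 in UH vs. UL and 0 to 1 in SH vs. SL, and leaving out each heifer gave 0 to 1 in the test by cycle. The call in UH vs. UL was lost without UL2 or UH1. Without UL3 the single call was miR-141, not miR-205. In SH vs. SL the call without SH2 was miR-200a, in a fit that called 34 of 196 miRNAs against 11 of 201 as reported. There miR-200a passed the filter on low values through SL alone. In the test by cycle without L3 it was miR-141, among 9 of 230 against 12 of 238. In S vs. U the count was 0 under every alternative run.

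miR-205 kept a log2 fold change below 0 in UH vs. UL in 15 of 15 alternatives and passed the thresholds in 10. With voom weights it was -1.07. One of the 10 was the replicate block, at -1.17, which in UH vs. UL joins H and L libraries of unrelated heifers that share only a number. It is therefore no paired result. By heifer, the block gave -0.39 for miR-205 in S vs. U, and the block changed no call of a member.

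Members with few reads changed sign. In UH vs. UL, miR-200b was 0.019 and miR-200a -0.094 with library sizes without TMM, and 0.175 and -0.156 with voom weights. In S vs. U, miR-200a was -0.082 with the deposited values. Leaving out a library in UH vs. UL gave -0.45 to 0.78 for miR-200a, -0.40 to 0.71 for miR-200b and -1.20 to 0.74 for miR-200c. Leaving out a heifer in S vs. U gave -0.34 to 0.47, -0.012 to 0.62 and -0.061 to 0.89 for the same members, and -0.084 to 1.82 for miR-200c in the test by cycle. Leaving out a library in SH vs. SL gave -2.32 to -1.13 for miR-200a, -1.39 to -0.36 for miR-200b, 0.004 to 0.91 for miR-200c and -0.53 to -0.12 for miR-205. In the test by cycle, leaving out a heifer gave 0.21 to 1.31 for miR-205, -2.48 to -0.70 for miR-200a and -1.29 to -0.033 for miR-200b. The causes were not tested. With a minimum of 10 reads only miR-205 could be tested, since depth leaves the family members at a few reads per library.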
